A study of Mus musculus with 6 samples.

Results

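The 10 genes described here encode feedback inhibitors of mitogen-activated protein (MAP) kinase signalling. They are the dual-specificity phosphatase genes Dusp1, Dusp2, Dusp4, Dusp5, Dusp6 and Dusp10, the Sprouty genes Spry1 and Spry2, and the Sprouty-related genes Spred1 and Spred2. They were chosen by gene symbol from the platform's annotation, which gave 11 array rows with 1 symbol each, and a gene with several rows was represented by the row with the highest mean. All 10 were found among the 19937 genes measured, and all 10 lay above the filter on low values, which left 15037 genes for testing.

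The arrays measured sorted mouse regulatory T cells (Tregs), CD4+ T cells that restrain immune responses. Unfractionated peripheral T cells of wild-type C57BL/6 mice had been transferred into recipients that lacked T cells of their own through deletion of CD3ε. In the MHC II-deficient group the recipients lacked MHC class II as well, and in the MHC II-competent group they had it. Cells positive for CD4, TCRβ and CD25 were sorted from lymph nodes and spleen on day 5, with 3 arrays per group and an age of 6 to 8 weeks given for the mice. The labels do not say whether a replicate was 1 recipient or a pool, and the sort used CD25, not Foxp3, so it can hold other CD25+ T cells. In such bulk samples fewer cells of a type and less RNA per cell cannot be told apart.

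When a T cell receptor (TCR) meets its peptide on MHC class II, Ras is activated and the kinases Raf, MEK and ERK follow in turn, while JNK and p38 form parallel arms. Many of the genes that ERK switches on encode its own brakes. The dual-specificity phosphatases remove the phosphates that activate ERK, JNK or p38, and Sprouty and Spred proteins act further up, at Ras and Raf. Messenger levels of these genes are often read as a trace of recent ERK activity, although several of them also respond to stress or cytokines.

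The inhibitor genes did not move as a block. In Tregs from MHC II-deficient recipients Dusp10 rose 1.59-fold, Dusp1 lay 1.40-fold higher without passing the test and Dusp4 lay 1.47-fold lower without passing it. The 2 Sprouty genes lay slightly higher and the 2 Spred genes slightly lower, with overlapping groups. Dusp10 was the 1 member of 10 with an adjusted p under 0.05 (limma with Benjamini-Hochberg adjustment over all genes tested), where 3.37% of all genes tested passed. It was 1 of 10 on the higher side and 0 of 10 on the lower side, against 1.34% and 2.03% of all genes tested. At an unadjusted p under 0.05 stood 4 of the 10 and 18.9% of all. For 3 of the 10 genes the groups did not overlap, against 24.3% of all genes tested, with 2 higher (11.4% of all) and 1 lower (12.9% of all). The median log2 difference, MHC II-deficient minus MHC II-competent, was 0.00 over the 10 genes, with 5 above and 5 below 0, and 0.02 over all genes tested. In the plot of values by array this shows as small shifts in both directions.

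**Figure D1:**
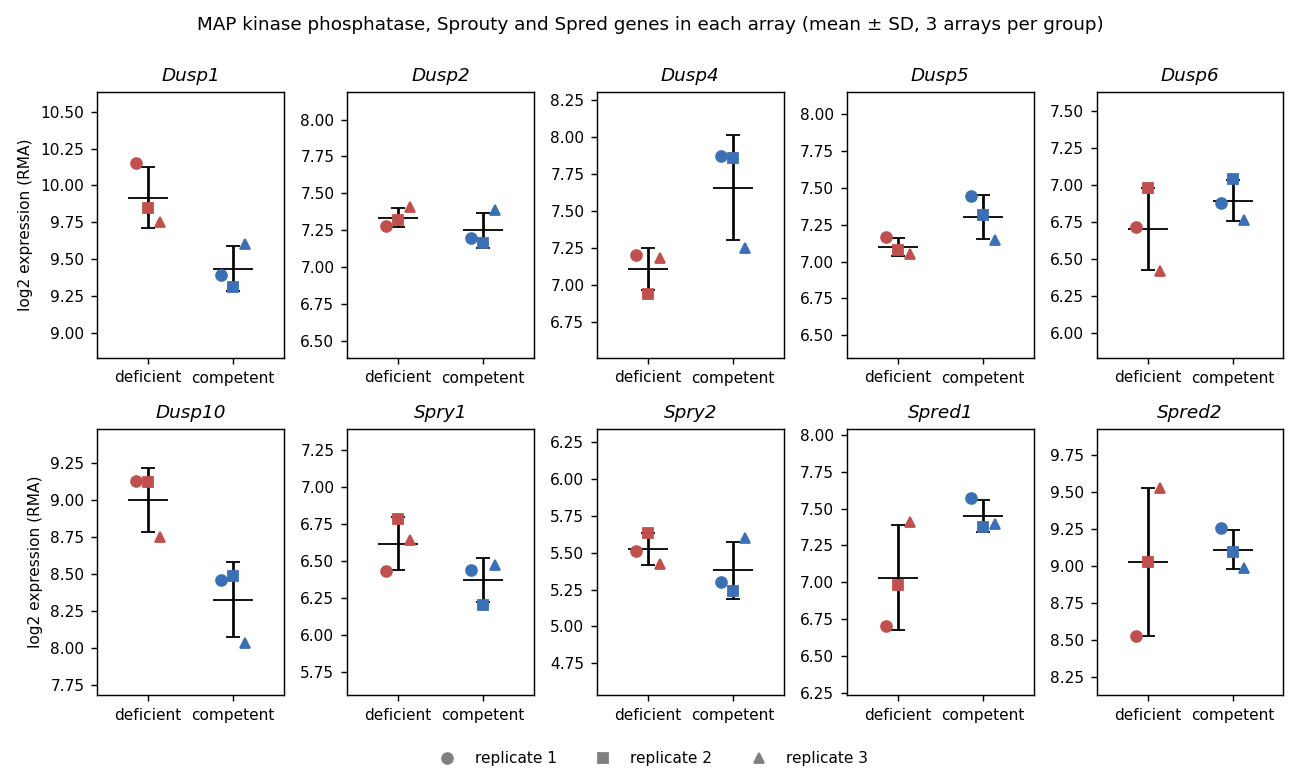
Log2 expression (RMA) of each of the 10 genes in the 3 MHC II-deficient arrays (red, left) and the 3 MHC II-competent arrays (blue, right), with mean and SD, each panel spanning the same height on the log2 scale. The groups are apart for Dusp1, Dusp4 and Dusp10 and overlap for the other 7 genes.

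The member that rose was Dusp10 (row 10352448), which encodes MKP-5, a phosphatase that acts on JNK and p38 rather than ERK. Its log2 values were 9.13, 9.12 and 8.75 in the MHC II-deficient arrays 1 to 3, against 8.46, 8.49 and 8.04 in the MHC II-competent 1 to 3. All 3 MHC II-deficient arrays lay above all 3 MHC II-competent ones, with a gap of 0.26 between the groups. The log2 difference was 0.67 (SE 0.15, 95% interval 0.33 to 1.02, adjusted p = 0.048), and 2.22% of the genes tested differed by more in either direction. The adjusted p stood close to the threshold. It was 0.055 when all genes were tested without a filter and 0.088 with the arrays centred on their medians, and without 1 array it lay between 0.038 and 0.17. The call held only when the array left out was deficient 3, while the difference stayed between 0.53 and 0.798.

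Markers of myeloid cells moved with Dusp10. The mean of the 19 myeloid markers tested was 7.54, 7.36 and 6.84 in the MHC II-deficient arrays 1 to 3, against 6.62, 6.91 and 6.14 in MHC II-competent 1 to 3. Of these 19 genes 16 were above the MHC II-competent mean in the MHC II-deficient group and 3 below it, with a median log2 difference of 0.72. The 3, named after their values were seen, were Itgam (-0.43), Cst3 (-0.28) and Cx3cr1 (-0.09). Without overlap of the groups 6 lay higher and 2 lower, against 11.4% and 12.9% of all genes tested. At an unadjusted p under 0.05 stood 15 of the 19, Itgam and Cst3 among them, and 18.9% of all. With the adjusted p 1 of the 19 passed the test, against 3.37% of all genes tested. That gene was Adgre1, a macrophage marker gene, at 7.40 ± 0.52 in the MHC II-deficient and 6.02 ± 0.51 in the MHC II-competent group (SD, n = 3 each), and its call ended without any 1 array but deficient 3 (highest adjusted p 0.11), under quantile normalization (0.058), with median centring (0.065) and with the trended prior (0.059). C1qa, a complement gene of macrophages, differed by 1.36 (SE 0.39, adjusted p = 0.10), and passed without deficient 3 (1.78, adjusted p = 0.034). All 19 lay above the filter value of 5.205, but some lay near it. Spi1, Cd163 and Cd14, named after their values were seen, had means over the 6 arrays of 5.24, 5.32 and 5.49. Within both groups replicate 3 was lowest for Dusp10 and for the myeloid mean alike. With the myeloid mean as a covariate the log2 difference of Dusp10 was 0.26 (SE 0.15, adjusted p = 0.45, 3 residual degrees of freedom). Deficient 3 and competent 2 had close myeloid means, 6.84 and 6.91, and Dusp10 values of 8.75 and 8.49. The part of myeloid cells in the Dusp10 result was not tested.

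**Figure D2:**
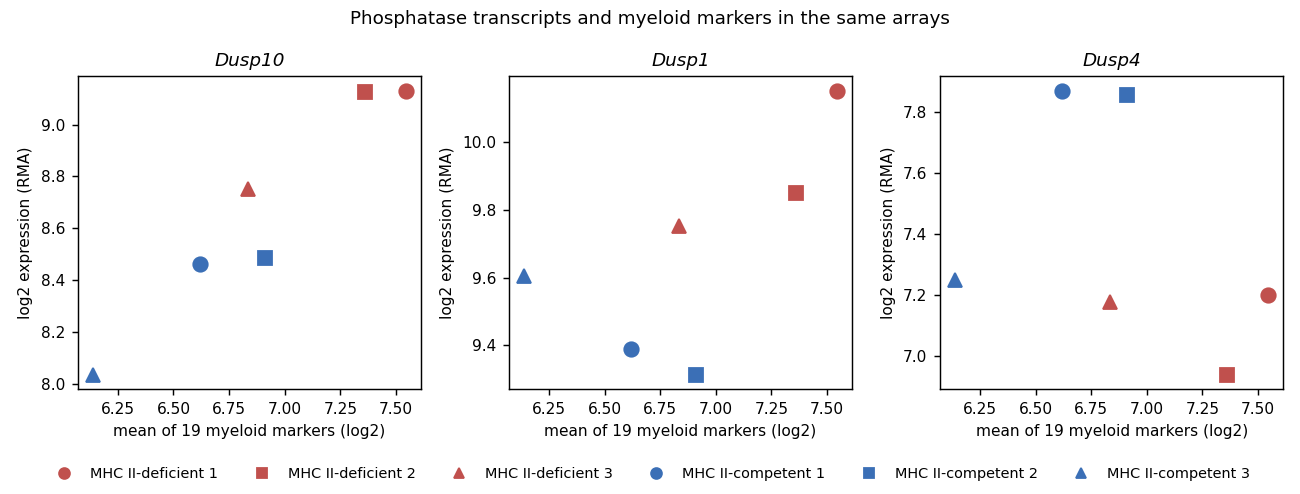
Log2 expression of Dusp10, Dusp1 and Dusp4 in each array against the mean log2 level of 19 myeloid markers in the same array, MHC II-deficient in red and MHC II-competent in blue, with the replicate given by the symbol. Dusp10 was lowest, at 8.04, in competent 3, which also had the lowest myeloid mean, 6.14. Dusp4 was highest, at 7.87 and 7.85, in competent 1 and 2. Their myeloid means of 6.62 and 6.91 lay between the lowest, 6.14 in competent 3, and the highest, 7.54 in deficient 1.

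Dusp1 (row 10449284) encodes MKP-1, a nuclear phosphatase of p38 and JNK, and of ERK, that many stimuli induce within minutes. It stood at 10.15, 9.85 and 9.75 in the MHC II-deficient arrays, against 9.39, 9.31 and 9.60 in the MHC II-competent arrays. The groups did not overlap, but the highest competent array lay only 0.15 under the lowest deficient one. The log2 difference of 0.48 (SE 0.13, 95% interval 0.19 to 0.77) did not pass (adjusted p = 0.082). Without competent 3 the difference was 0.57 and the adjusted p was 0.04987, and it was 0.47 with the myeloid mean as a covariate (adjusted p = 0.33). Dusp1 belongs with transcripts that handling of cells can raise. The mean of 15 other such genes ran from 7.85 to 7.93 in the MHC II-deficient arrays and from 7.73 to 7.79 in the MHC II-competent arrays. Of these 15 genes 10 lay higher and 5 lower. Past the test was 1 of them, Jun, against 3.37% of all genes tested. The part of handling in the Dusp1 values was not tested.

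Dusp4 (row 10571312) encodes MKP-2, a nuclear phosphatase that ERK signalling induces and that acts on ERK and JNK. Its values were 7.20, 6.94 and 7.18 in the MHC II-deficient arrays, against 7.87, 7.85 and 7.25 in the MHC II-competent arrays. Competent 1 and 2 stood well above the rest, and competent 3 stood only 0.049 above the highest deficient array. The log2 difference of -0.55 (SE 0.17, 95% interval -0.93 to -0.17) did not pass (adjusted p = 0.12). Here 1 array decided the call: without competent 3 the difference was -0.76 and passed (adjusted p = 0.012), and without competent 1 it was -0.45 (adjusted p = 0.27). With array weights it was -0.64 and passed as well (adjusted p = 0.041), and with the myeloid mean as a covariate it was -0.83 (SE 0.23, adjusted p = 0.15). For Dusp10, Dusp1 and Dusp4 an exact two-sided permutation test over the 6 arrays gave p = 0.1, the smallest that 3 against 3 arrays allow.

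**Figure D3:**
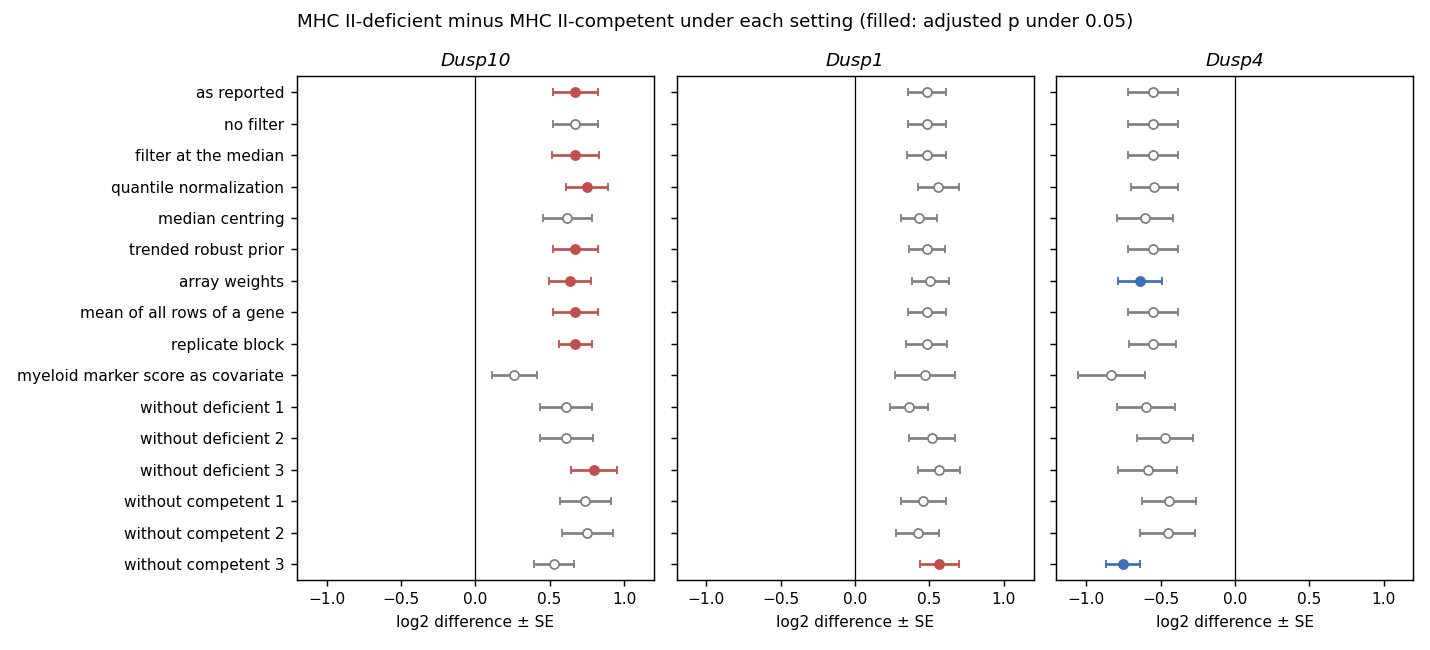
Log2 difference, MHC II-deficient minus MHC II-competent, with its SE for Dusp10, Dusp1 and Dusp4 as reported and under each of 15 other settings, filled where the adjusted p was under 0.05. All 3 genes kept their sign under every setting shown, while Dusp10 was past the threshold in 7 of the 15 settings, Dusp1 in 1 and Dusp4 in 2.

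The ERK-specific phosphatase genes differed little. Dusp5 (row 10463945), whose product resides in the nucleus, stood at 7.17, 7.08 and 7.05 in the MHC II-deficient arrays, against 7.44, 7.31 and 7.15 in the MHC II-competent arrays. The groups overlapped through competent 3 alone, and the log2 difference was -0.20 (SE 0.11, 95% interval -0.44 to 0.03, adjusted p = 0.34). Dusp6 (row 10366043), whose product MKP-3 acts in the cytoplasm, stood at 6.72, 6.98 and 6.42 in the MHC II-deficient arrays, against 6.88, 7.04 and 6.76 in the MHC II-competent arrays. Its log2 difference was -0.19 (SE 0.15, 95% interval -0.52 to 0.14, adjusted p = 0.53). Dusp2 (row 10475782), which encodes PAC-1, a nuclear phosphatase of activated lymphocytes, stood at 7.28, 7.32 and 7.41 in the MHC II-deficient arrays, against 7.20, 7.17 and 7.39 in the MHC II-competent arrays. Its log2 difference of 0.08 (SE 0.10, adjusted p = 0.71) had a 95% interval from -0.14 to 0.31, so differences of more than 0.31 in either direction lay outside it.

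Promoters were read for 9 of the 10 genes from RefSeq (GRCm38.p6), as 250 bases before and 50 after the start. The gene without a promoter in the source used was Dusp4, which lay lower in all MHC II-deficient arrays. Promoters are printed for Dusp10 and Dusp1, which lay higher in all MHC II-deficient arrays, and for Dusp5, which did not. The likeness of the upstream sequences to each other was not measured. Capitals mark the cyclic AMP response element (CRE) TGACGTCA or its core TGACG on either strand, and the CArG box, the site of serum response factor. The CArG box is marked in its strict form CCWWWWWWGG (W is A or T), which was added after values were seen.
Dusp10, chr1:184034131-184034430, + strand: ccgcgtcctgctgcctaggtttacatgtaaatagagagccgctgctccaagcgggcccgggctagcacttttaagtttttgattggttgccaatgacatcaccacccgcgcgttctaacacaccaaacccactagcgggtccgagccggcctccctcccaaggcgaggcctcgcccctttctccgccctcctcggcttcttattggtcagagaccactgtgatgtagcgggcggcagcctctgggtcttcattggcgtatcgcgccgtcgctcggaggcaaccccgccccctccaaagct
Dusp1, chr17:26508423-26508722, - strand: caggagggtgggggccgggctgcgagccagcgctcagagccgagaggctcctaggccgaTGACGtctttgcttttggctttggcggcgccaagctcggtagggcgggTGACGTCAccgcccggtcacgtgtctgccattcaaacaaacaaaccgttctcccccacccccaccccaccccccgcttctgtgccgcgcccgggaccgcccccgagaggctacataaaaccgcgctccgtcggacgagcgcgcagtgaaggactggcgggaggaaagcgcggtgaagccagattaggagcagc
Dusp5, chr19:53528895-53529194, + strand: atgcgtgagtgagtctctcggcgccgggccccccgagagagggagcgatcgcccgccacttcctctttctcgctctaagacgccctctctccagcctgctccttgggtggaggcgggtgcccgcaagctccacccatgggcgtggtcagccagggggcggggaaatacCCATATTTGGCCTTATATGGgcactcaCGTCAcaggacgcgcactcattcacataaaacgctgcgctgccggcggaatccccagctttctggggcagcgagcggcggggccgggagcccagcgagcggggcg
The Dusp1 window held 1 full CRE, which starts at -143 from the start site, and a further TGACG at -191. A full CRE was found in 1.79% of the 32851 promoter windows in the table and in 1 of the 9 windows of these genes. A core TGACG, counted also inside the full CRE, was in 20.8% of all windows and in 4 of the 9, those of Dusp1, Dusp2, Dusp5 and Spred2. The Dusp5 window held 2 adjoining CArG boxes of the strict form, at -82 and -72, a motif found in 1.63% of all windows and in no other window of the 9. The Dusp10 window held no match to either element. The Egr motif GCGNGGGCG matched 1 of the 9 (Dusp2) and 5.55% of all, and the ETS motif CCGGAA matched 1 of the 9 (Spry2) and 14.9% of all. The AP-1 motif TGANTCA matched 0 of the 9 and 7.81% of all, and GGAAA, the core of NFAT and NF-kappaB sites, 6 of the 9 and 61.3% of all. All motifs were searched on both strands, and a match shows that these letters are present, not that a factor binds.

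The Sprouty proteins, which restrain receptor signalling to ERK, were encoded by transcripts that lay a little higher. Spry1 (row 10491721) stood at 6.43, 6.79 and 6.64 in the MHC II-deficient arrays, against 6.44, 6.20 and 6.47 in the MHC II-competent arrays. Deficient 1 lay within the competent range, and the log2 difference was 0.25 (SE 0.12, 95% interval -0.03 to 0.52, adjusted p = 0.32). Spry2 (row 10422227), which lay near the filter value of 5.205, stood at 5.51, 5.64 and 5.42 in the MHC II-deficient arrays, against 5.30, 5.24 and 5.60 in the MHC II-competent arrays. Its log2 difference was 0.14 (SE 0.12, 95% interval -0.13 to 0.41, adjusted p = 0.57). It reached 0.255 without competent 3, and the adjusted p was 0.19.

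The Spred proteins bind neurofibromin, which inactivates Ras, and bring it to the membrane. Spred1 (row 10474671) stood at 6.70, 6.98 and 7.41 in the MHC II-deficient arrays, against 7.57, 7.38 and 7.40 in the MHC II-competent arrays. Deficient 1 and 2 were low and deficient 3 lay among the competent arrays. The log2 difference of -0.42 (SE 0.16, 95% interval -0.79 to -0.05) did not pass (adjusted p = 0.21), and it was -0.61 without deficient 3 (adjusted p = 0.058) and -0.26 without deficient 1 (adjusted p = 0.52). With the myeloid mean as a covariate it was -0.11. Spred2 has 2 rows that disagree in spread. The brighter one (row 10374464) stood at 8.53, 9.03 and 9.53 in the MHC II-deficient arrays (SD 0.50, the widest spread of any of the 10 genes), against 9.25, 9.09 and 8.99 in the MHC II-competent arrays. The other row (10374455) stood at 8.85, 8.84 and 8.75 in the MHC II-deficient arrays, against 9.08, 9.005 and 8.83 in the MHC II-competent arrays. The log2 difference was -0.08 (SE 0.21, 95% interval -0.56 to 0.39, adjusted p = 0.87) for the brighter row, and its sign turned without deficient 1 (0.17) and with the myeloid mean as a covariate (0.28). It was -0.12 for the mean of both rows (adjusted p = 0.67). Nf1, the gene of neurofibromin, chosen after its values were seen, stood at 7.84, 7.66 and 7.53 in the MHC II-deficient arrays, against 7.26, 7.23 and 7.34 in the MHC II-competent arrays. Its groups did not overlap, and the log2 difference of 0.40 (SE 0.11) did not pass (adjusted p = 0.082).

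Competent 3 was the MHC II-competent array nearest to the mean of the MHC II-deficient group for 8 of the 10 genes, and for 41.5% of all genes tested, the largest share of the 3 arrays. Competent 2 was nearest for Dusp10 and Spred1 (24.4% of all) and competent 1 for 0 of the 10 (34.1% of all). Competent 3 also had the lowest myeloid mean of the 6 arrays.

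The other genes of these families gave no call. Of 7 other MAP kinase phosphatase genes tested, limma called 0, with 2 at an unadjusted p under 0.05 (18.9% of all genes tested). Their median log2 difference was -0.04. Dusp7, which encodes a cytoplasmic ERK phosphatase, differed by -0.10 (SE 0.13) and Dusp16, which encodes a JNK phosphatase, by 0.02 (SE 0.17). Ptpn7, chosen after its values were seen, encodes a haematopoietic tyrosine phosphatase of ERK and p38. It averaged 8.44 ± 0.025 in the MHC II-deficient and 8.81 ± 0.30 in the MHC II-competent arrays (SD, n = 3 each), with groups that did not overlap and an adjusted p of 0.19 (0.047 without competent 3). Of the other Sprouty and Spred genes, 2 of 3 were tested and limma called 0, with 0 at an unadjusted p under 0.05. Spry4 differed by -0.08 (SE 0.15) and Spred3 by 0.04 (SE 0.10).

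**Figure D4:**
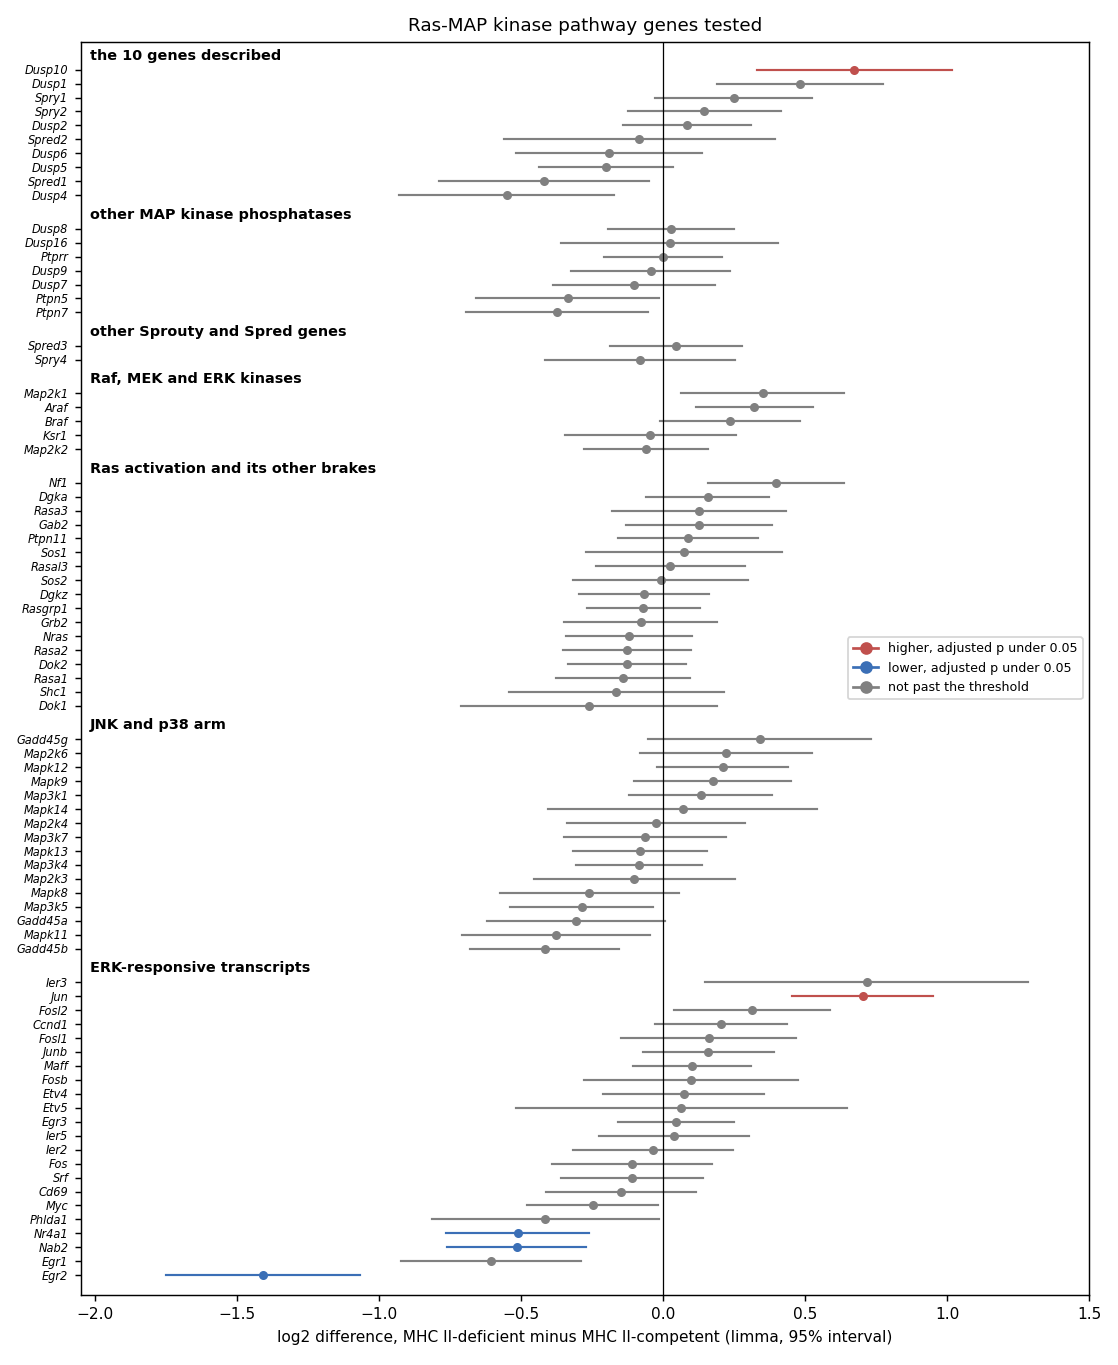
Log2 difference, MHC II-deficient minus MHC II-competent, with limma's 95% interval for the 10 genes and for the tested genes of 6 other lists of the Ras-MAP kinase pathway. Coloured points have an adjusted p under 0.05: Dusp10 and Jun on the higher side, and Egr2, Nab2 and Nr4a1 on the lower side.

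No tested gene of the signalling chain that these proteins act on passed the test. Of 17 genes tested that activate or restrain Ras, limma called 0, with 1 at an unadjusted p under 0.05 (18.9% of all genes tested). Their median log2 difference was -0.07. Rasgrp1, which encodes the exchange factor that loads Ras after TCR signals, differed by -0.07 (SE 0.09, 95% interval -0.27 to 0.13). Of 5 kinase and scaffold genes of the Raf, MEK and ERK steps tested, limma called 0, with 2 at an unadjusted p under 0.05 and a median of 0.24. The groups did not overlap for 3 of these 5, against 24.3% of all genes tested. These 3 were Araf (0.32, SE 0.09), Braf (0.24, SE 0.11) and Map2k1 (0.35, SE 0.13), chosen after their values were seen. All 3 were higher after transfer into MHC II-deficient recipients, against 11.4% of all genes tested on that side. Of 16 genes of the JNK and p38 arm tested, limma called 0, with 3 at an unadjusted p under 0.05 and a median of -0.07. Gadd45b, an activator of that arm chosen after its values were seen, differed by -0.42 (SE 0.12, adjusted p = 0.094, and 0.043 with array weights).

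Among 22 transcripts known to respond to ERK, 3 fell and 1 rose past the test, against 2.03% and 1.34% of all genes tested. Their median log2 difference was 0.04. At an unadjusted p under 0.05 (limma) stood 9 of the 22, against 18.9% of all. Without overlap of the groups 5 lay lower and 3 higher, against 12.9% and 11.4% of all. Egr2, an early growth response factor, stood at 7.83, 7.76 and 7.57 in the MHC II-deficient arrays, against 9.36, 9.24 and 8.79 in the MHC II-competent arrays. Its log2 value fell by 1.41 (SE 0.15, adjusted p = 0.0027), a larger shift than that of any of the 10 inhibitor genes. Nab2, a cofactor of the Egr proteins, fell by 0.52 (SE 0.11) and Nr4a1, which encodes Nur77, by 0.51 (SE 0.11), while Jun, an AP-1 subunit, rose by 0.70 (SE 0.11). The calls of Nab2 and Nr4a1 each ended when any 1 array but competent 3 was left out (highest adjusted p 0.13 and 0.15), that of Nab2 also under quantile normalization (0.063), and that of Jun ended without deficient 1 or deficient 2 (0.063 and 0.053). With the myeloid mean as a covariate Egr2 stood at -1.77 and passed (adjusted p = 0.0049), and Nab2 (-0.43), Nr4a1 (-0.47) and Jun (0.61) did not (adjusted p = 0.29, 0.26 and 0.15). Egr1, another early growth response factor, stood at the threshold with a log2 difference of -0.61 (SE 0.14, adjusted p = 0.051). It passed in 7 of the 15 other settings, with the adjusted p between 0.032 and 0.159 over all 15. Fos differed by -0.11 (SE 0.13), Phlda1 by -0.42 (SE 0.18, adjusted p = 0.25) and Etv5, an ETS factor that ERK induces, by 0.06 (SE 0.26). Of these 22 genes 7 also belong to the handling list.

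Genes whose values followed Dusp10 most closely over the 6 arrays were Ly6k, Zfp28 and Rab6b, each with a Pearson r of 0.99. These correlations describe 6 arrays in 2 groups that already differ in Dusp10, and 66 genes tested had an r above 0.95. Zfp28 itself rose (log2 difference 0.64, SE 0.14, adjusted p = 0.041), a call that ended without any 1 array but deficient 3 (highest adjusted p 0.16), under quantile normalization (0.064), with median centring (0.078) and with the myeloid mean as a covariate (0.30, adjusted p = 0.40), while Ly6k (0.38, adjusted p = 0.10) and Rab6b (0.42, adjusted p = 0.077) did not pass.

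The cells carried the markers of their label. Foxp3 averaged 9.77 ± 0.09 in the MHC II-deficient and 9.82 ± 0.05 in the MHC II-competent arrays, and Il2ra, which encodes CD25, 11.12 and 11.39. Limma called 0 of 9 Treg and T cell markers, with 3 at an unadjusted p under 0.05 (18.9% of all genes tested). All 9 lay lower in the MHC II-deficient group, as did 6924 of the 15037 genes tested. For 4 of the 9 the groups did not overlap, all lower, against 12.9% of all genes tested. These were Il2ra (-0.27) and, named after their values were seen, Ctla4 (-0.33), Ikzf2 (-0.29) and Cd3g (-0.14). Of the B cell markers 3 of 6 measured lay above the filter and limma called 0, with 2 at an unadjusted p under 0.05. Their mean ran from 6.16 to 6.23 in the MHC II-deficient and from 6.07 to 6.35 in the MHC II-competent arrays. Cd79a, a B cell receptor subunit gene, differed by 0.46 (SE 0.16, adjusted p = 0.17, and 0.027 without competent 1). The other 2 were named after their values were seen. Cd79b went the other way, by -0.39 (SE 0.13, adjusted p = 0.14) with groups that did not overlap, and Pax5 differed by 0.02 (SE 0.13). Of the CD8 T and NK cell markers 5 of 7 lay above the filter and limma called 0, with 2 at an unadjusted p under 0.05. Their mean ran from 7.54 to 7.63 in the MHC II-deficient and from 7.35 to 7.42 in the MHC II-competent arrays, and Cd8a differed by 0.32 (SE 0.13, adjusted p = 0.21).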

How the data were processed

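The deposited table holds log2 values that the authors made by robust multi-array averaging (RMA) with affy, per the submitters' processing notes. RMA corrects background, equalises the arrays and summarises probes, which compresses small differences of dim rows. The log base is not stated and was taken as 2 from the range of 2.40 to 13.3, and versions and genome build are not given in the sources used here. Array medians lay between 6.11 and 6.25, and the number of arrays limits the precision.

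Of 28101 rows, 21640 had 1 gene symbol, updated by Entrez identifier for 21553. Each gene kept its brightest row, and 4900 genes with a mean under 5.205, the 25th percentile of rows, were left out. The comparison was fitted with limma 3.58.1 in R 4.3.3 (lmFit, eBayes, two-sided, 4 residual degrees of freedom) over 15037 genes, and the fit was tested on simulated data. Fold changes are 2 to the power of the log2 difference. Limma's p-values set the difference between the groups against the spread between arrays within a group, moderated over all genes tested.

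The 10 members, gene lists and tests were chosen with earlier results of these data known. Named were all members, up to 6 called genes of each list, a fixed set, and the 3 genes most like each called member. Genes chosen after their values were seen are marked. The strict CArG box was also added then. Alternatives changed the filter, the scaling, the variance prior, array weights, the row of a gene, the replicate block, a myeloid covariate and the arrays included. Some genes of the lists are not reported here.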

Additional observations from a re-analysis of the deposited data

How the results depend on the processing

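The 10 genes gave 136 of 149 values under the alternatives with the same sign and the same side of the threshold as reported, and Spry2 had no value with the filter at the median, which left it out. Their count past the threshold was 1 as reported, 0 with no filter, with median centring and with the myeloid covariate (limma, with 4, 5 and 4 of the 10 at an unadjusted p under 0.05), 2 with array weights, and 0 to 2 with 1 array left out. Without competent 3 the 2 were Dusp1 and Dusp4. Over all genes the count of 507 fell to 92 with the covariate, where fewer residual degrees of freedom remain, and ran from 159 (without deficient 1) to 708 (without competent 3) with 1 array left out. The split was 201 higher and 306 lower as reported, 230 and 230 under quantile normalization, 127 and 297 under median centring, 76 and 83 without deficient 1, 117 and 96 without deficient 2, and 92 and 81 without competent 2. No scaling moved the median difference of all genes by over 0.1.

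With the replicate block 564 genes passed and 1 of the 10, Dusp10 (adjusted p = 0.010). The labels share numbers between groups without saying that they pair arrays. Deviations of same-numbered arrays from their group means correlated at -0.025, -0.14 and 0.069. With 3 arrays per group these values cannot decide whether the arrays were paired. Deficient 1 correlated best with competent 2 (0.093) and deficient 2 with competent 1 (0.17), and only deficient 3 correlated best with its own number. Among the other named genes the block took Egr1 (adjusted p = 0.032) and C1qa (0.0021) past the threshold and put Nab2 (0.052) and Nr4a1 (0.053) outside it.

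Signs turned for small differences, whose cause was not tested. With the myeloid covariate the difference was 0.28 for Spred2, -0.44 for Dusp16, 0.037 for Spry4, 0.033 for Fos and -0.59 for Etv5. Under quantile normalization it was -0.017 for Dusp16, -0.0085 for Spred3 and 0.017 for Foxp3, and under median centring -0.032 for Dusp16 and -0.010 for Spred3. With array weights it was -0.027 for Dusp16 and -0.089 for Etv5. With 1 array left out it ran from -0.33 to 0.17 for Spred2, from -0.18 to 0.0039 for Dusp7, from -0.17 to 0.14 for Dusp16, from -0.21 to 0.0052 for Spry4, from -0.034 to 0.0996 for Spred3, from -0.19 to 0.025 for Fos and from -0.20 to 0.31 for Etv5.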
